A study of Mus musculus with 6 samples.

Results

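The genes described here encode the Wnt signalling pathway from its ligands to its transcription factors. They were picked by a symbol rule that uses no measured value but was chosen with earlier results of these data known. The rule took every gene of the deposited table named Wnt, Fzd, Sfrp, Dkk or Rspo followed by a digit. It also took 22 named co-receptors, inhibitors, relay proteins and TCF/LEF factors. This gave 56 genes among the 18507 in the table. Transcripts of interscapular brown fat from C57BL/6 mice were sequenced. The control group held 3 wild-type biological replicates (WT), and the other group held 3 labelled Beclin1-/- (Beclin1_KO), which the series title calls adipocyte-specific knockouts. Both groups were gavaged with tamoxifen at 75 mg/kg daily for 5 days to induce Cre, ate chow and lived at 22 °C with 12 h of light, although a separate treatment tag reads untreated in every sample. The Cre driver, age and sex of the animals and the interval after tamoxifen are not given in the sources used here.

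WNT proteins are secreted ligands that carry a fatty acid added by porcupine. They bind frizzled receptors together with the co-receptors LRP5 or LRP6, and dishevelled proteins then halt the complex of AXIN, APC and GSK3 that destroys beta-catenin, which can enter the nucleus and act with TCF/LEF factors. R-spondins, acting through LGR receptors, keep frizzleds on the cell surface, whereas SFRP proteins and some DKK proteins act mainly outside the cell to restrain signalling. In fat, beta-catenin signalling is best known for holding precursor cells back from becoming adipocytes.

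In Beclin1_KO tissue the secreted inhibitor genes Sfrp1, Sfrp2 and Sfrp4 rose, as did Dkk3, a distant member of the Dickkopf family. The R-spondin gene Rspo3, the TCF/LEF genes Tcf7 and Tcf7l1, Nkd2 and the ligand gene Wnt16, low in both groups, also rose. The receptor genes Fzd1, Fzd2 and Fzd5 rose while Fzd4 and Lgr6 fell. The ligand gene Wnt5a, the feedback gene Axin2, Porcn and Dvl3 fell. Of 16 alternative analyses, Axin2 kept its call in 9, Lgr6, Sfrp2 and Tcf7l1 in 10 each, and Porcn and Nkd2 in 8 each. The genes of beta-catenin and of the co-receptor LRP6 did not pass the test. Of the 56 genes, 47 had enough counts to be tested, 12 rose, 6 fell and 29 did not pass, so that 38.3% of those tested changed. Among all 15347 genes tested 46.6% changed, 24.8% upward and 21.8% downward, so the Wnt genes changed no more often than the rest of the table. Their median log2 fold change was 0.30, against 0.05 for all genes tested. Rises and falls refer to an adjusted p below 0.05 in edgeR's quasi-likelihood test with Benjamini-Hochberg adjustment over all genes tested, and log2 fold changes are Beclin1_KO minus WT. CPM are counts per 1000000 counts after TMM scaling, and ± is the SD over n = 3 libraries. Wnt5a, Fzd1, Fzd2, Fzd4, Sfrp1, Dkk3 and Tcf7 kept their direction and passed under all 16 alternative analyses. When WT replicate 2 and Beclin1_KO replicate 1, the libraries richest in muscle transcripts within their groups, were left out, 7 Wnt genes rose and 3 fell. On the FPKM scale 13 rose and 3 fell, and 74.2% of all calls were higher there, against 53.3% in the count analysis.

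**Figure D1:**
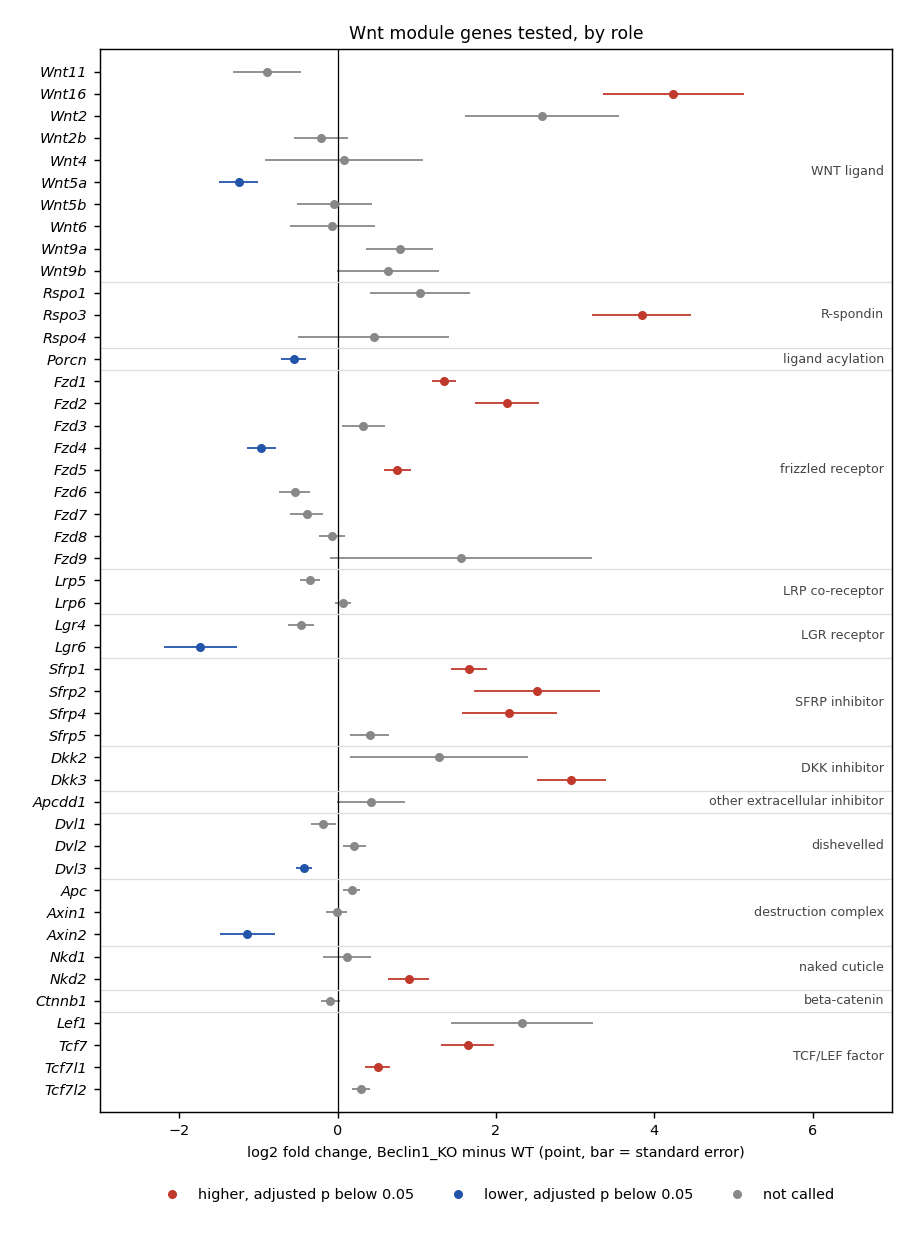
Log2 fold change (Beclin1_KO minus WT, x axis) of the 47 tested Wnt pathway genes, ordered by role, with points for edgeR estimates and bars for standard errors. The 12 red points lie between 0.50 (Tcf7l1) and 4.24 (Wnt16), and the 6 blue points between -0.43 (Dvl3) and -1.73 (Lgr6).

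Libraries held 44269031 to 60983193 counts. Becn1, the targeted gene, stood at 82.8, 86.4 and 89.2 CPM in WT and 58.0, 53.8 and 42.7 CPM in Beclin1_KO (log2 fold change -0.74, SE 0.13, adjusted p = 0.00411). The tissue carried the adipocyte markers of brown fat in every library. Their summed level was 25670 to 30140 CPM over 8 genes in WT and 6777 to 12350 CPM in Beclin1_KO, where 7 of 8 fell. The summed level of 10 fibroblast and progenitor markers was 1690 to 2410 CPM in WT and 7731 to 12630 CPM in Beclin1_KO, with 9 of 10 higher. That of 9 macrophage markers was 255 to 296 CPM against 4269 to 7024 CPM, with 9 of 9 higher. That of 10 T and NK cell markers was 4.80 to 7.68 CPM against 87.9 to 102.5 CPM, with 9 of 10 higher and Cd8b1 and Ncr1 at 0 in at least 1 library. Endothelial markers summed to 1363 to 1607 CPM against 684 to 867 CPM, with 6 of 7 lower. Mural cell markers summed to 944 to 1081 CPM against 465 to 609 CPM, with 2 of 6 lower. Schwann cell, B cell and epithelial sums overlapped between the groups, and Trac, Krt5, Krt14 and Krt15 were not analysed here. Skeletal muscle markers summed to 682 to 20190 CPM in WT and 1530 to 38210 CPM in Beclin1_KO, with 0 of 10 called. In whole tissue, fewer cells of a type and less RNA per cell cannot be told apart. The part of these cell types in the changes below was not tested, and marker sums printed beside a gene only describe the libraries.

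Wnt5a, the ligand best known for acting without beta-catenin, was the most abundant WNT gene of WT brown fat and fell. WT libraries had 14.8, 17.3 and 18.5 CPM, and Beclin1_KO libraries had 8.84, 7.67 and 4.75 CPM. Each knockout library was below each WT library, and the lowest was replicate 3. The fall was 2.38-fold (log2 fold change -1.25, SE 0.25, adjusted p = 0.00623). On the authors' FPKM scale, which is per length and allows genes to be set side by side, the level of Wnt5a was 3.41 ± 0.11 in WT and 1.80 ± 0.54 in Beclin1_KO. It made up 36.9% to 52.7% of the summed FPKM of the 14 WNT genes in WT and 21.9% to 26.8% in Beclin1_KO.

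Wnt11, another ligand that acts largely outside the beta-catenin route, was next in WT with 2.38 ± 0.95 FPKM, below Wnt5a in every WT library by a ratio of 1.05 to 2.46. It had 7.37, 10.6 and 4.84 CPM in WT, compared with 5.05, 5.16 and 2.05 CPM in Beclin1_KO, with overlapping groups (log2 fold change -0.90, SE 0.43, adjusted p = 0.133). Wnt9a, a ligand of the beta-catenin route, supplied 5.86% to 9.54% of WNT FPKM in WT and 15.6% to 19.2% in Beclin1_KO, while its own CPM overlapped between groups (adjusted p = 0.178).

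Wnt16, known from bone and skin, was the ligand gene that rose. It had 2, 2 and 0 counts in WT and 41, 56 and 19 counts in Beclin1_KO, so it was barely detected in WT (log2 fold change 4.24, SE 0.89, adjusted p = 0.00814). Its mean of 0.633 CPM in the knockouts was still low, and without the libraries highest in muscle genes its adjusted p was 0.0542 (0.000322 to 0.0542 over the alternatives that tested it). Wnt2, a ligand first known from lung and placenta, stood at 0.193, 0.402 and 0 CPM in WT and 1.52, 1.34 and 0.767 CPM in Beclin1_KO. These groups did not overlap, yet it did not pass (log2 fold change 2.59, SE 0.97, adjusted p = 0.0665). Its adjusted p was 0.0205 with DESeq2, 0.0495 when WT replicate 2 was left out and 0.0464 when WT replicate 3 was left out, within 0.0205 to 0.163 over the alternatives.

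The remaining tested ligands Wnt2b, Wnt4, Wnt5b, Wnt6 and Wnt9b overlapped between the groups and had adjusted p of 0.458 to 0.953. Wnt10b, a ligand that blocks the conversion of precursors into fat cells, was under the count filter, with 0 counts in each WT library and 7, 5 and 21 counts in the Beclin1_KO libraries. It was detected in the knockouts alone at this depth, and the authors' deposited table gave it an adjusted p of 0.0209. Wnt10a, Wnt7b and Wnt8b were also under the filter, with 0 to 11 counts per library. Wnt1, Wnt3, Wnt3a, Wnt7a and Wnt8a were not analysed here.

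Porcn, the enzyme that attaches the fatty acid to WNT proteins, stood at 16.5, 13.8 and 13.3 CPM in WT and 9.96, 8.45 and 11.2 CPM in Beclin1_KO. The groups did not overlap, and the level fell 1.47-fold (log2 fold change -0.56, SE 0.16, adjusted p = 0.0279). This call was fragile: the adjusted p was 0.0695 without WT replicate 1, 0.0519 without WT replicate 2, 0.0654 without Beclin1_KO replicate 1, 0.0886 without Beclin1_KO replicate 2, 0.109 without the libraries highest in muscle genes and 0.376 on the FPKM scale, against 0.00822 to 0.376 over the alternatives.

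Among the R-spondins, which amplify WNT signals, Rspo3 rose. Its level was 0.169, 0.246 and 0.214 CPM in WT and 3.38, 4.68 and 1.05 CPM in Beclin1_KO, so even the lowest knockout library was above each WT library. The rise was 14.3-fold (log2 fold change 3.84, SE 0.62, adjusted p = 0.00292). Rspo1 and Rspo4 overlapped between groups and did not pass (adjusted p = 0.222 and 0.724). Rspo2 was under the count filter with 0 counts in every WT library and 6, 9 and 0 in Beclin1_KO.

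Of 9 frizzled genes tested, 3 rose, 1 fell and 5 did not pass, so that 44.4% changed, near the 46.6% of all genes. Fzd4, the receptor that also serves the ligand norrin in blood vessels, was the most abundant frizzled of WT brown fat and fell. It stood at 68.8, 78.6 and 88.6 CPM in WT and 42.7, 30.6 and 47.5 CPM in Beclin1_KO, without overlap. The level fell 1.95-fold (log2 fold change -0.97, SE 0.18, adjusted p = 0.00560). Fzd1, a receptor that can signal through beta-catenin, went the other way, with 22.8, 16.2 and 18.5 CPM in WT and 50.1, 52.9 and 43.1 CPM in Beclin1_KO. Each knockout library was well above the highest WT library, and the rise was 2.54-fold (log2 fold change 1.35, SE 0.16, adjusted p = 0.000780).

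Fzd2, which receives WNT5A among other ligands, rose from 1.67, 2.37 and 1.92 CPM in WT to 10.04, 12.0 and 4.29 CPM in Beclin1_KO. Replicate 3 was the lowest knockout library and was still above WT (log2 fold change 2.14, SE 0.40, adjusted p = 0.00525). Fzd5 rose by less, from 4.01, 3.86 and 3.54 CPM to 6.28, 6.97 and 6.02 CPM (log2 fold change 0.76, SE 0.17, adjusted p = 0.0110). Without the libraries highest in muscle genes the adjusted p of Fzd5 was 0.0789 (0.000175 to 0.0789 over the alternatives that tested it).

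The makeup of the receptor family differed between the groups. In WT, Fzd4 supplied 49.7% to 55.6% of the summed FPKM of the 10 frizzled genes and Fzd1 8.63% to 14.1%. The Beclin1_KO shares were 23.3% to 37.3% for Fzd4 and 25.4% to 33.9% for Fzd1. The ratio of Fzd1 to Fzd4 FPKM within a library, which no scaling between libraries can alter, was 0.279, 0.174 and 0.176 in WT, compared with 0.986, 1.46 and 0.764 in Beclin1_KO. The ratios of the groups did not overlap, and Fzd1 exceeded Fzd4 in replicate 2 of the knockouts. The summed FPKM of the family was 33.9 to 37.7 in WT and 37.7 to 48.2 in Beclin1_KO. Over genes tested in both, log2 fold changes on the FPKM scale also lay above those of the count analysis by a median of 0.32. The sum of 48.2 in Beclin1_KO replicate 1, a library rich in muscle transcripts, included 6.44 FPKM of Fzd9. Fzd7 supplied 15.3% to 17.6% in WT, above Fzd1 in each WT library, and 11.7% to 14.8% in Beclin1_KO, below Fzd1 in each. Its CPM overlapped between groups (log2 fold change -0.39, SE 0.21, adjusted p = 0.168). Fzd7 passed as lower without Beclin1_KO replicate 1 (log2 fold change -0.60, adjusted p = 0.0466), within 0.0466 to 0.832 over the alternatives. Fzd6 stood at 14.8, 18.4 and 13.7 CPM in WT and 11.5, 8.36 and 12.3 CPM in Beclin1_KO. Its groups did not overlap, but it did not pass (adjusted p = 0.0587). It passed with DESeq2 (0.0342) and without Beclin1_KO replicate 3 (0.0466), against 0.0342 to 0.446 over the alternatives. Fzd3 and Fzd8 overlapped between groups, and Fzd10 was under the count filter with 0 to 88 counts per library.

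**Figure D2:**
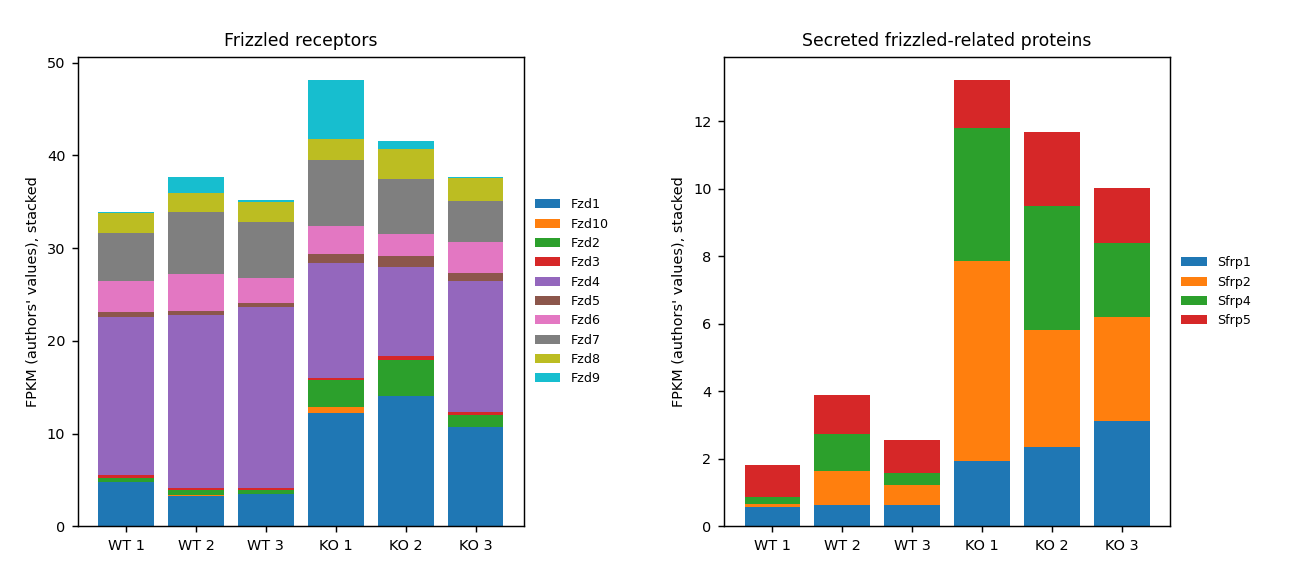
Stacked FPKM values of the 10 frizzled receptor genes (left) and the 4 genes named Sfrp (right) in each library, with WT 1 to 3 and Beclin1_KO (KO) 1 to 3 on the x axis. The Fzd4 segment is the tallest of each WT bar, while the Fzd1 segment nears or exceeds it in the knockouts, and the SFRP bars reach 1.83 to 3.89 FPKM in WT and 10.02 to 13.2 FPKM in Beclin1_KO.

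Stretches before a RefSeq start of Fzd1, which rose, of Fzd4, which fell, and of Axin2, the feedback gene that fell, are shown. They compare the DNA before starts of genes of one pathway that moved in different directions. Each stretch covers 239 bases, from 250 to 12 bases before a RefSeq start, written 5′ to 3′ on the gene's strand from RefSeq build GRCm38.p6, the assembly behind mm10. Fzd1 is from chr5:4758228-4758466 on the minus strand, Fzd4 from chr7:89404116-89404354 on the plus strand and Axin2 from chr11:108920099-108920337 on the plus strand. Capitals mark the TCF/LEF core CTTTG, the TATA box TATAAA and the GC box GGGCGG on either strand. Overlapping GC boxes run together. RefSeq lists several starts for Axin2, of which 1 is shown. That stretch lies inside the RefSeq span of Axin2, chr11:108917828-108950783, before an internal start, and not upstream of the whole gene.
Fzd1: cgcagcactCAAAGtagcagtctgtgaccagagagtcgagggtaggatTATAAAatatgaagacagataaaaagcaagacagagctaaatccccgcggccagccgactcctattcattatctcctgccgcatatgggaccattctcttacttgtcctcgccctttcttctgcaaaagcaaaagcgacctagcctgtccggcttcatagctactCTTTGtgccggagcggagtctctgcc
Fzd4: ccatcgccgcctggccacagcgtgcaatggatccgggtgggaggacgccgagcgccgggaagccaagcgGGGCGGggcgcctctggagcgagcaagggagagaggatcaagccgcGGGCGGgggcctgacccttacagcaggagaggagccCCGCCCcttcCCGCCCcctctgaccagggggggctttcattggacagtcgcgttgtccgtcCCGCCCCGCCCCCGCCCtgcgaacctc
Axin2: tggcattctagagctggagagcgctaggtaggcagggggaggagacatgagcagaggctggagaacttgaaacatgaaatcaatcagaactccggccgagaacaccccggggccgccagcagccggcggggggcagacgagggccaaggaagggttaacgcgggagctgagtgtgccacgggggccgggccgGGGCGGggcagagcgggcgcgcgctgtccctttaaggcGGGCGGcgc

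The Fzd1 stretch held 2 CTTTG cores and 1 TATA box with no GC box, and its G and C content was 50.2%. The Fzd4 stretch held 7 GC boxes, none of the other motifs and 72.8% G and C, and that of Axin2 held 2 GC boxes and 67.8% G and C. The median over the first listed promoter of 27025 genes was 51.9%. A RefSeq promoter was matched for 36 of the 56 Wnt genes. A CTTTG core lay in 13 of these 36 (36.1%), against 47.5% of all promoters, and in 2 of the 7 that rose (Fzd1 and Tcf7l1) and 0 of the 4 that fell. The longer forms CTTTGAA and CTTTGAT lay in 0 and 1 of the 36, against 4.5% and 3.12% of all. A GC box lay in 27 of the 36, against 31.3% of all, and in all 4 promoters of genes that fell (Axin2, Dvl3, Fzd4 and Lgr6) and 3 of the 7 that rose. The 27025 genes include genes outside the 18507 of the deposited table and were not matched to the Wnt genes in expression or type. These shares therefore do not show a trait of the Wnt genes. A match here is a description of letters and not of a bound site.

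The co-receptor genes Lrp5 and Lrp6 did not pass. Lrp6 stood at 81.9, 85.1 and 93.1 CPM in WT and 95.4, 89.7 and 87.6 CPM in Beclin1_KO, with a log2 fold change of 0.07 and a 95% interval of -0.16 to 0.30 (adjusted p = 0.599). It passed as higher on the FPKM scale (log2 fold change 0.38, adjusted p = 0.0154), where log2 fold changes lay a median of 0.32 above the count analysis. The sign of Lrp6 turned to -0.00199 without WT replicate 1. Lrp5 stood at 108, 83.6 and 105 CPM in WT and 83.4, 75.4 and 74.5 CPM in Beclin1_KO. Its groups did not overlap, by a narrow margin (log2 fold change -0.35, SE 0.13, adjusted p = 0.0631). It passed as lower with DESeq2 (0.0412), without WT replicate 2 (0.0255) and without the libraries highest in muscle genes (0.0414), and its sign turned on the FPKM scale (0.00854, adjusted p = 0.961).

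Lgr6, a receptor for R-spondins, fell. It had 27.8, 49.0 and 77.9 CPM in WT, compared with 20.2, 9.20 and 17.2 CPM in Beclin1_KO. The WT libraries were widely spread, and WT replicate 1 stood close above the highest knockout library (log2 fold change -1.73, SE 0.46, adjusted p = 0.0235). The adjusted p was 0.0503 without WT replicate 2, 0.0542 without WT replicate 3, 0.0585 without Beclin1_KO replicate 2, 0.0745 without Beclin1_KO replicate 3 and 0.0530 without the libraries highest in muscle genes, within 0.00013 to 0.0745 over the alternatives. The related receptor gene Lgr4 stood at 16.4, 20.3 and 19.0 CPM in WT and 13.2, 16.03 and 11.3 CPM in Beclin1_KO. Its groups did not overlap, but it did not pass (log2 fold change -0.46, SE 0.17, adjusted p = 0.0591). It passed with DESeq2 (0.0385) and without Beclin1_KO replicate 2 (0.0370), against 0.0370 to 0.654 over the alternatives. Lgr5, the intestinal stem cell marker, was under the filter with 0 to 6 counts per library.

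Of 7 tested genes grouped here as extracellular inhibitors, 4 rose, 0 fell and 3 did not pass, while 24.8% of all genes rose and 21.8% fell. Dkk3 was placed in this group by its family name alone. Sfrp1, which binds WNT proteins and frizzleds, rose 3.16-fold, from 2.68, 3.15 and 3.44 CPM in WT to 7.95, 8.84 and 12.5 CPM in Beclin1_KO (log2 fold change 1.66, SE 0.23, adjusted p = 0.00163). Dkk3, a distant member of the Dickkopf family, rose 7.74-fold, from 2.51, 3.303 and 2.61 CPM to 31.4, 24.1 and 9.87 CPM (log2 fold change 2.95, SE 0.43, adjusted p = 0.00215). In the knockouts Dkk3 was lowest in replicate 3, while Sfrp1 was highest there. The fibroblast, macrophage and T and NK cell marker sums were all lowest in that knockout library, at 7731, 4269 and 87.9 CPM. The part of these cell types in either gene was not tested.

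Sfrp2 and Sfrp4, both secreted by stromal cells in many tissues, rose from low WT levels. Sfrp2 stood at 0.193, 2.32 and 1.42 CPM in WT and 11.1, 5.96 and 5.65 CPM in Beclin1_KO (log2 fold change 2.52, SE 0.80, adjusted p = 0.0421). Sfrp4 stood at 0.435, 2.21 and 0.807 CPM in WT and 6.50, 5.54 and 3.57 CPM in Beclin1_KO (log2 fold change 2.17, SE 0.60, adjusted p = 0.0246). Neither overlapped between groups, but both calls depended on single libraries. For Sfrp2 the adjusted p was 0.122 without WT replicate 3, 0.103 without Beclin1_KO replicate 1, 0.0809 without Beclin1_KO replicate 2, 0.0731 without Beclin1_KO replicate 3 and 0.0631 without the libraries highest in muscle genes, within 0.0012 to 0.122 over the alternatives. For Sfrp4 it was 0.0931 without WT replicate 3, 0.0635 without Beclin1_KO replicate 1 and 0.0661 without Beclin1_KO replicate 2, within 0.000757 to 0.0931.

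Sfrp5, an SFRP that adipocytes secrete, did not rise with them. It stood at 1.98, 2.50 and 2.28 CPM in WT and 2.54, 3.59 and 2.83 CPM in Beclin1_KO, which did not overlap but did not pass (log2 fold change 0.41, 95% interval -0.18 to 1.00, adjusted p = 0.223). On the FPKM scale it passed as higher (log2 fold change 0.43, adjusted p = 0.0350), against 0.0350 to 0.515 over the alternatives. Its share of the summed FPKM of the 4 genes named Sfrp was 29.6% to 52.2% in WT, the highest in each library. In Beclin1_KO it was 10.8% to 18.8%, the lowest of the 4 in each library. The related gene Frzb falls outside the symbol rule and was not in these sums. Frzb stood at 0, 0.504 and 0.026 FPKM in WT and 2.23, 0.725 and 0.125 FPKM in Beclin1_KO. It overlapped between groups and did not pass (adjusted p = 0.339). The ratio of Sfrp1 to Sfrp5 FPKM was 0.548 to 0.658 in WT and 1.07 to 1.92 in Beclin1_KO. Apcdd1, a membrane inhibitor, overlapped between groups (adjusted p = 0.458). Wif1, which traps WNT proteins, was under the filter, with 3, 4 and 10 counts in WT and 0, 2 and 0 in Beclin1_KO. Its CPM did not overlap between groups, and the authors' deposited table gave it an adjusted p of 0.108. Notum, which removes the fatty acid of WNT proteins, was under the filter with 0 to 7 counts per library. Dkk1 and Dkk4 were not analysed here.

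**Figure D3:**
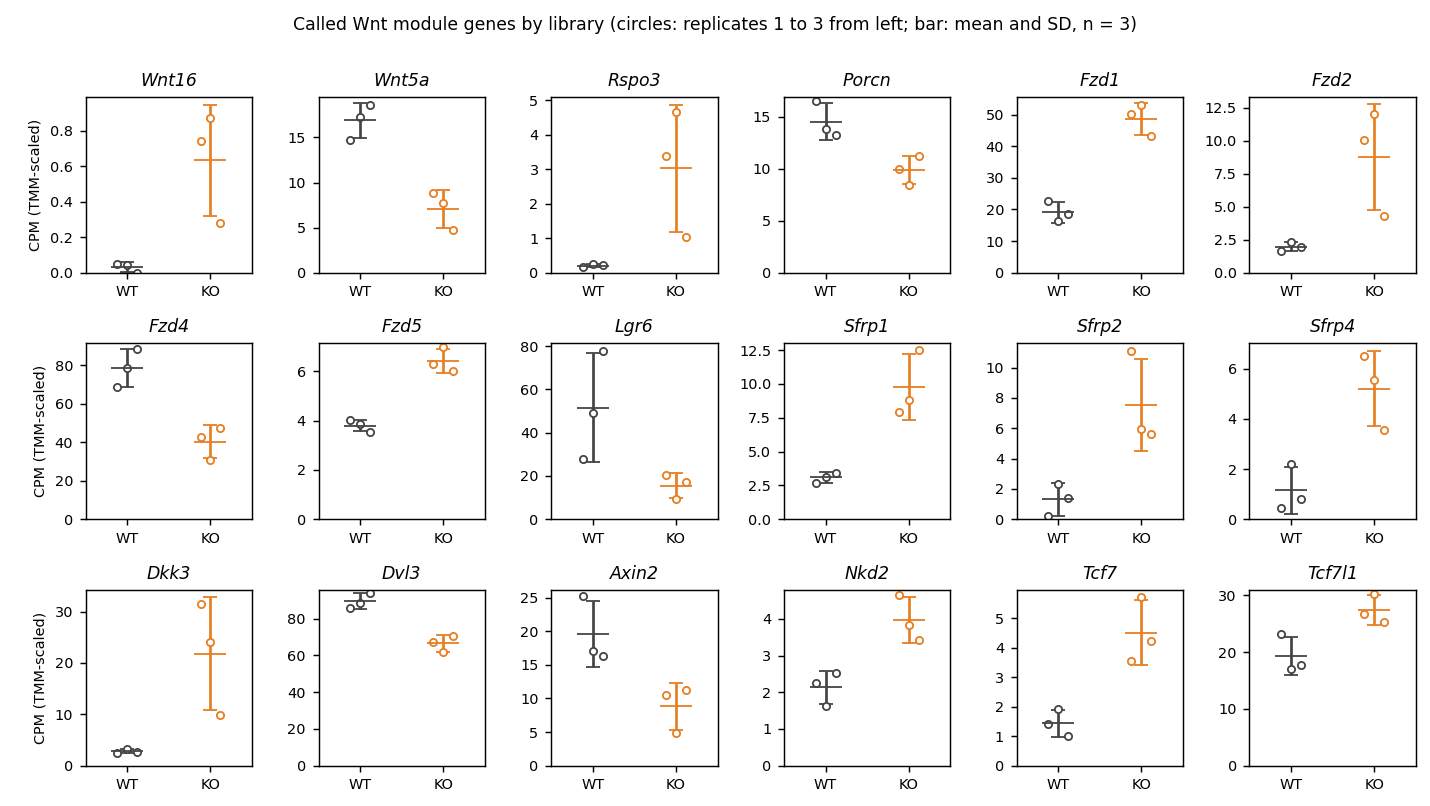
CPM (y axes, each from 0) of the 18 Wnt pathway genes that passed the test, with circles for libraries and bars for the mean and SD of 3 libraries per group. The circles of WT and Beclin1_KO are apart in every panel, but genes were chosen for passing the test, which favours such separation. It was also found in 59.7% of the 15347 genes with enough counts. Replicate 3, the right-hand circle, is the lowest knockout library for Rspo3, Fzd2 and Dkk3 among others.

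For Fzd9, Dkk2 and Wnt4 the 2 highest libraries were Beclin1_KO replicate 1 and WT replicate 2, which were also the highest in muscle markers. Fzd9, a frizzled receptor gene, stood at 0.338, 4.15 and 0.427 CPM in WT and 12.7, 1.65 and 0.206 CPM in Beclin1_KO. Its 3 highest libraries had the 3 highest muscle marker sums, at 38210 CPM in Beclin1_KO replicate 1, 20190 CPM in WT replicate 2 and 9002 CPM in Beclin1_KO replicate 2. Dkk2, an inhibitor that binds LRP5 and LRP6, stood at 0.628, 1.03 and 0.807 CPM in WT and 5.34, 0.390 and 0.295 CPM in Beclin1_KO, and Wnt4 at 0.894, 3.35 and 1.19 CPM and 4.57, 0.842 and 0.354 CPM. None of them passed (adjusted p = 0.487, 0.394 and 0.953). Without Beclin1_KO replicate 1 the log2 fold change of each was below 0, at -0.82 for Fzd9, -1.26 for Dkk2 and -1.60 for Wnt4, against 1.56, 1.28 and 0.08 in all libraries. That of Wnt4 was also below 0 without WT replicate 1 (-0.28) and without WT replicate 3 (-0.18), and without WT replicate 2 that of Fzd9 was 3.64 and that of Wnt4 0.86. Fzd10, under the count filter, was also highest in Beclin1_KO replicate 1 (88 counts) and WT replicate 2 (19 counts). Frzb, outside the symbol rule, was highest in Beclin1_KO replicate 1 (6.08 CPM), Beclin1_KO replicate 2 (1.825 CPM) and WT replicate 2 (1.696 CPM). The part of muscle in these genes was not tested.

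**Figure D4:**
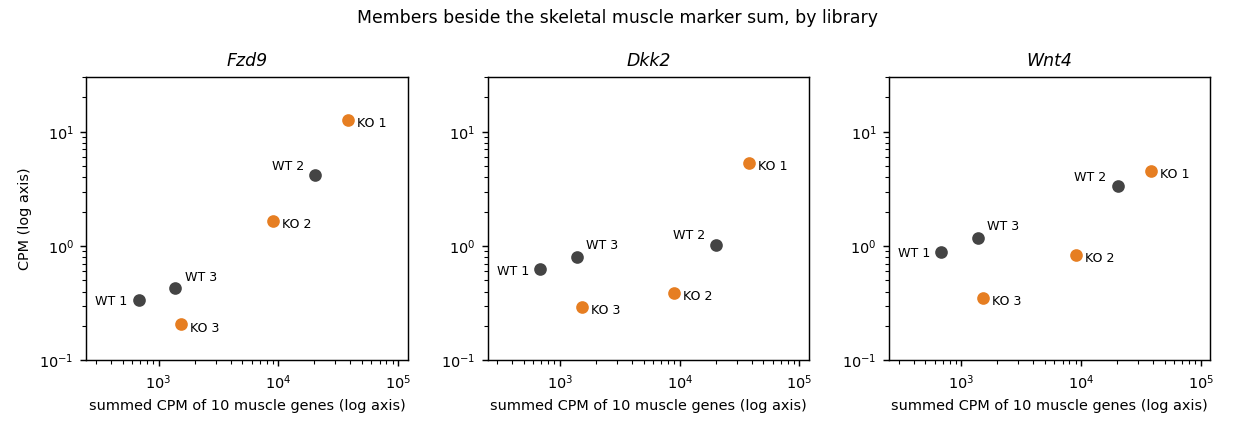
CPM of Fzd9, Dkk2 and Wnt4 (y axis, log scale) against the summed CPM of 10 skeletal muscle marker genes (x axis, log scale) in each of the 6 libraries, WT in grey and Beclin1_KO (KO) in orange. Beclin1_KO replicate 1 is highest on both axes in each panel and WT replicate 2 is next on the muscle axis.

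Inside the cell, of 13 relay and TCF/LEF genes tested, 3 rose, 2 fell and 8 did not pass, so that 38.5% changed, against 46.6% of all genes. Axin2, a scaffold of the destruction complex and a widely used readout of beta-catenin activity, fell from 25.2, 17.1 and 16.3 CPM in WT to 10.5, 4.83 and 11.2 CPM in Beclin1_KO. No overlap was seen, and the lowest library was replicate 2 of the knockouts (log2 fold change -1.14, SE 0.35, adjusted p = 0.0339). The call was fragile, with an adjusted p of 0.0929 without WT replicate 1, 0.0536 without WT replicate 2, 0.0538 without WT replicate 3, 0.0545 without Beclin1_KO replicate 1, 0.0769 without the libraries highest in muscle genes and 0.0703 on the FPKM scale, within 0.00388 to 0.0929 over the alternatives. The direction was downward in all 16 alternatives.

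Nkd2, a binder of dishevelled proteins, rose. WT libraries had 2.25, 1.63 and 2.52 CPM and Beclin1_KO libraries 4.65, 3.84 and 3.42 CPM, without overlap (log2 fold change 0.90, SE 0.26, adjusted p = 0.0294). The adjusted p was 0.0667 without WT replicate 1, 0.0845 without WT replicate 2, 0.0917 without Beclin1_KO replicate 1, 0.0700 without Beclin1_KO replicate 2 and 0.198 without the libraries highest in muscle genes, within 0.00643 to 0.198 over the alternatives that tested it. Dvl3, one of the dishevelled genes, fell 1.35-fold, from 85.6, 88.6 and 94.2 CPM to 67.2, 61.7 and 70.7 CPM, without overlap (log2 fold change -0.43, SE 0.10, adjusted p = 0.0115). Its log2 fold change was -0.07 on the FPKM scale (adjusted p = 0.582) and its adjusted p was 0.0779 without the libraries highest in muscle genes, within 0.00067 to 0.582 over the alternatives. Dvl1, Dvl2, Apc, Axin1 and Nkd1 overlapped between groups, with log2 fold changes of -0.18 to 0.21. Apc, a scaffold of the destruction complex, passed as higher on the FPKM scale (log2 fold change 0.41, adjusted p = 0.0250), against 0.18 in the count analysis (adjusted p = 0.226) and 0.0250 to 0.524 over the alternatives.

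Ctnnb1, the beta-catenin gene, stood at 444, 455 and 499 CPM in WT and 442, 412 and 456 CPM in Beclin1_KO. The groups overlapped, and the log2 fold change was -0.09 with a 95% interval of -0.39 to 0.20 (adjusted p = 0.568), turning to 0.26 on the FPKM scale (adjusted p = 0.0709). Transcript level does not report on the stability of the protein, which was not measured.

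Among the 4 TCF/LEF genes, which encode the DNA-binding partners of beta-catenin, 2 rose and 2 did not pass. This share of 50% was near the 46.6% of all genes that changed. Tcf7, a factor abundant in T cells, rose 3.13-fold, from 1.40, 1.92 and 0.997 CPM in WT to 3.56, 5.72 and 4.23 CPM in Beclin1_KO (log2 fold change 1.64, SE 0.33, adjusted p = 0.00714). Lef1, also abundant in T cells, stood at 0.169, 0.223 and 0 CPM in WT and 0.871, 0.624 and 0.516 CPM in Beclin1_KO. It did not overlap between groups and did not pass (log2 fold change 2.33, SE 0.90, adjusted p = 0.0724), but passed with DESeq2 (0.0373), within 0.0373 to 0.174 over the alternatives. The T and NK cell marker sum rose in the same libraries from 4.80 to 7.68 CPM in WT to 87.9 to 102.5 CPM, and its part in the rise of Tcf7 was not tested. RefSeq gene spans overlap for Tcf7 and Skp1, for Tcf7l1 and Gm15401, and for Fzd4 and Tmem135, so reads may have been split between them, and the strand setting of the counting was not stated.

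Tcf7l1, which mostly represses its targets, was the TCF/LEF gene with the highest FPKM, at 60.7% to 67.2% of the family sum in WT and 61.3% to 63.8% in Beclin1_KO. It rose 1.42-fold, from 23.1, 17.1 and 17.8 CPM to 26.7, 30.3 and 25.2 CPM, without overlap (log2 fold change 0.50, SE 0.15, adjusted p = 0.0325). The adjusted p was 0.102 without WT replicate 2, 0.108 without WT replicate 3, 0.0635 without Beclin1_KO replicate 1, 0.106 without Beclin1_KO replicate 2 and 0.152 without the libraries highest in muscle genes, within 0.00698 to 0.152 over the alternatives. Tcf7l2, the factor linked to type 2 diabetes risk in humans, stood at 14.3, 12.8 and 12.9 CPM in WT and 15.9, 17.1 and 16.1 CPM in Beclin1_KO (log2 fold change 0.30, SE 0.11, adjusted p = 0.0667). Its groups did not overlap, and it passed with DESeq2 (0.0458) and on the FPKM scale (0.0116), within 0.0116 to 0.226 over the alternatives.

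Over the 47 genes tested, groups did not overlap for 25, against 59.7% of all genes. In the authors' deposited table, 15 of the 56 genes were higher and 8 lower at an adjusted p below 0.05, among 55 with such a value, against 44.3% of all genes with a value there. All 18 genes called here were among them with the same direction, and the others were Wnt2, Fzd6, Lgr4, Lef1 and Wnt10b.

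Pathway genes that the symbol rule leaves out were read from a list of 61, of which 59 were tested. Of these 17 rose, 11 fell and 31 did not pass, so that 47.5% changed, near the 46.6% of all genes, with a median log2 fold change of 0.08. Tpbg, a membrane protein that inhibits WNT signals, rose from a WT mean of 1.18 ± 0.10 CPM to 9.86 ± 1.43 CPM in the knockouts (log2 fold change 3.06, SE 0.20, adjusted p = 0.000111). Ror1, a receptor for WNT5A, rose 6.195-fold from 1.31 ± 0.23 CPM (adjusted p = 0.000396), and Dact1, a partner of dishevelled, rose 4.46-fold from 3.08 ± 0.37 CPM (adjusted p = 0.000272). Wls, the carrier that brings WNT proteins to the cell surface, rose 1.79-fold, from 37.4 ± 3.77 to 66.8 ± 5.34 CPM (adjusted p = 0.00155), while Porcn fell in the same libraries. Bcl9l, a coactivator of beta-catenin, fell 2.21-fold, from 81.9 ± 5.76 to 37.2 ± 4.09 CPM (adjusted p = 0.000441). Ctnnbip1, which blocks beta-catenin from TCF factors, fell 1.61-fold from 41.0 ± 1.71 CPM (adjusted p = 0.00136), and its adjusted p on the FPKM scale was 0.0541.

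The other genes of that list that fell were Tspan12, a partner of FZD4 in norrin signalling, the kinase genes Gsk3a, Gsk3b and Csnk1g2, the ubiquitin ligase gene Btrc, Gpc4, and the planar polarity genes Prickle1, Prickle3 and Celsr2. Log2 fold changes of the 11 that fell ranged from -0.31 to -1.68, and those of the 17 that rose from 0.37 to 3.06. Gsk3b, the kinase that marks beta-catenin for destruction, stood at 63.9, 85.5 and 87.6 CPM in WT and 47.7, 44.5 and 40.4 CPM in Beclin1_KO (log2 fold change -0.84, SE 0.15, adjusted p = 0.00393). Counts of this list shrank when libraries were left out, to 11 higher without WT replicate 1, WT replicate 3 or Beclin1_KO replicate 1, to 7 lower without WT replicate 3 and to 6 lower without Beclin1_KO replicate 2. They were 9 higher and 7 lower without the libraries highest in muscle genes, and 20 higher and 5 lower on the FPKM scale.

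Genes outside the family that are widely used as targets of beta-catenin were read from a separate list. Both this list and that of other pathway genes were chosen with earlier results of these data known. Of 15 tested, 8 rose, 1 fell and 6 did not pass, so that 60.0% changed, against 46.6% of all genes, of which 24.8% rose. The median log2 fold change was 1.87, against 0.05 for all genes. Runx2, the bone lineage factor, rose 25.1-fold, from 0.725, 0.491 and 0.451 CPM in WT to 17.0, 15.2 and 9.76 CPM in Beclin1_KO (adjusted p = 0.000127). Wisp1, a matricellular protein, rose 24.0-fold to 9.72 ± 4.27 CPM (adjusted p = 0.000610), and Cd44, an adhesion receptor of leukocytes and stroma, 15.6-fold to 148 ± 48.4 CPM (adjusted p = 0.000382). Myc rose 7.02-fold to 32.8 ± 17.1 CPM (adjusted p = 0.00176) and Jun 1.89-fold to 165 ± 22.3 CPM (adjusted p = 0.00187). Vegfa, the endothelial growth factor, fell 3.75-fold, from 723 ± 67.3 to 193 ± 15.7 CPM (adjusted p = 0.000158). Ccnd1, a cell cycle target, stood at 31.4, 46.2 and 42.6 CPM in WT and 25.4, 39.4 and 48.6 CPM in Beclin1_KO, with overlap (log2 fold change -0.08, adjusted p = 0.814), turning to 0.22 on the FPKM scale, 0.02 without WT replicate 2, 0.14 without Beclin1_KO replicate 1 and 0.25 without both. These genes also have other regulators and are expressed by macrophages and fibroblasts, whose markers rose in the same libraries, and that part was not tested.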

How the data were processed

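RNA of interscapular brown adipose tissue was sequenced from 3 WT and 3 Beclin1_KO mice. Per the labels' protocols, libraries came from Trizol RNA and the TruSeq Stranded mRNA kit. Per the submitters' processing notes, tools included HISAT2 2.1.0 and StringTie 1.3.4d, beside bcl2fastq 2.20.0, Trimmomatic and DESeq2, and the build was mm10. No source used here gives the annotation, strand setting or multimapping rules. The authors deposited read counts per gene (whole numbers) and FPKM. They also deposited values on a log2-like scale, which were not used, and a comparison holding a signed fold score, a mean signal of normalized counts and p-values.

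The deposited counts entered edgeR 4.0.16 (R 4.3.3) with filterByExpr (15347 genes kept, 3160 removed), TMM factors of 0.83 to 1.19, a robust quasi-likelihood fit on genotype and Benjamini-Hochberg adjustment over all genes tested. The biological coefficient of variation was 33.2%. SE was taken as the absolute log2 fold change over the square root of F. The 16 alternatives were upper-quartile scaling, RLE scaling, TMM factors computed after dropping the 20 genes with the most counts, DESeq2 1.42.0, limma 3.58.1 on log2(FPKM + 1) or log2(FPKM + 0.1) where 3 samples reached an FPKM of 1, no filter, a filter of 1 CPM, the replicate number as a block, each library left out, and both libraries highest in muscle genes left out. The tests were tried on simulated data. The design text calls the samples biological replicates. The genes and lists were chosen with earlier results of these data known.

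Values by library were given for genes of the family that passed, had a mean of at least 1 CPM and did not overlap, at most 8 per role, and for 13 lead genes. Up to 6 genes by smallest p and those of the minority direction were named from other lists. Wnt16, Wnt2, Wnt11, Fzd6, Fzd9, Dkk2, Wnt4, Fzd7, Apc, Ccnd1, Fzd10, Frzb and Wif1 were chosen after their values were seen. FPKM fold changes are on the log2(value + pseudocount) scale, which understates changes of low genes. Symbols were matched to RefSeq by Entrez number for 18467 of 18507 genes.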

Additional observations from a re-analysis of the deposited data

How the results depend on the processing

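Directions held for all 18 changed Wnt genes in every alternative that tested them, and 0 were called in the opposite direction. All 18 passed with DESeq2, with the other 3 scalings and with no filter. The FPKM scale, on which log2 fold changes of shared genes lay a median of 0.32 (pseudocount 1) or 0.34 (0.1) higher, tested 29 Wnt genes. There 3 Wnt genes, 5 other pathway genes and 1700 of all genes fell with pseudocount 1, against 3, 5 and 1699 with 0.1, and 74.2% of all calls were higher, against 53.3%. On it Ctnnb1 turned to 0.257 and 0.259, Lrp5 to 0.00854 and 0.0095 and Ccnd1 to 0.219 and 0.235. Without the libraries highest in muscle genes, 7 Wnt genes rose and 3 fell, 9 other pathway genes rose and 7 fell, and 2054 of all genes fell. In that setting Wnt4 was -0.798, Dkk2 -1.06 and Ccnd1 0.25. Leaving out single libraries gave 8 to 11 Wnt genes higher and 4 to 6 lower, 11 to 16 other pathway genes higher and 6 to 11 lower, and log2 fold changes of -0.837 to -0.626 for Becn1, -1.6 to 0.865 for Wnt4, -0.82 to 3.64 for Fzd9, -1.26 to 1.79 for Dkk2, -0.00199 to 0.105 for Lrp6 and -0.306 to 0.136 for Ccnd1. The cause of these changes was not tested. Deviations of same-numbered libraries from their group means correlated at -0.421, 0.00473 and 0.426, and those of differently numbered libraries at -0.571 to 0.59. The highest value joined WT replicate 2 and Beclin1_KO replicate 1, the libraries richest in muscle transcripts. With so few libraries these values cannot show whether the numbers mark pairs or a batch. With the replicate block, 9 Wnt genes rose and 5 fell, Porcn (adjusted p = 0.0501), Lgr6 (0.0635), Sfrp2 (0.122), Nkd2 (0.0584) and Tcf7l1 (0.0551) lost their call, Wnt11 passed (0.0282), and Wnt4 (-0.618) and Dkk2 (-0.0776) turned sign. Depth limits Wnt10a, Wnt10b, Wnt7b, Wnt8b, Rspo2, Fzd10, Lgr5, Wif1 and Notum, which had 0 to 88 counts per library.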
